A study of Mus musculus with 6 samples.

Results

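The complement genes examined are 9 that obstructed kidney expresses: C1qa, C1qb and C1qc, C1ra and C1s1, Serping1, C4b, C3 and Cfb. They were taken by gene symbol from the deposited expression table, which lists 33679 genes, and each symbol matched 1 row. Messenger RNA was sequenced from kidneys of Cd248 knockout (KO) mice and of wild type (WT) mice, all after unilateral ureteral obstruction, the ligation of 1 ureter, after which the kidney becomes inflamed and fibrotic. Cd248 encodes endosialin, a surface glycoprotein of fibroblasts and pericytes. The labels name 3 KO and 3 WT samples, and values for KO replicate 1 and WT replicates 1, 2 and 3 were analysed here, while KO replicates 2 and 3 were not. The labels used here do not state strain, age, sex, the time since obstruction or the design of the knockout allele, and the labels' protocols speak of pooled RNA. Each KO value is therefore a single measurement, and the spread given is that between WT libraries, which may be technical.

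Complement is a cascade of plasma and tissue proteins that marks cells and debris for removal and drives inflammation. In the classical pathway, C1q binds a surface or an antibody, its partner proteases C1r and C1s are activated, and C1s cleaves C4 and C2 to form an enzyme that splits C3. In the alternative pathway, factor B joins deposited C3 fragments and amplifies the deposition. Most circulating complement is made in liver, but injured kidney makes its own: C1q comes mainly from macrophages, C1r, C1s and C1 inhibitor largely from stromal cells, and C3 and factor B from tubular epithelium among other cells. In bulk tissue, fewer cells of a type and less RNA per cell cannot be told apart, and the cell source of each transcript was not measured.

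Cd248 was listed at 0 FPKM in the KO library, against 9.03, 9.57 and 8.78 FPKM in WT replicates 1, 2 and 3 (FPKM, fragments per unit of transcript length, adjusted for the number mapped in the library), as the labels imply. Kidney transcripts were abundant: Umod, the uromodulin of the loop of Henle, stood at 473 FPKM in the KO library and at 340, 640 and 560 FPKM in the WT libraries. Of 6 liver markers listed, Alb, Apoa1 and Ahsg were at or near 0, with Alb at 0.18 FPKM in the KO library and 0.02 to 0.11 FPKM in WT. The other liver markers, Serpina1a, Fga and Ttr, were not, at 13.8, 15.98 and 2.45 FPKM in the KO library. In WT replicates 1, 2 and 3, Serpina1a stood at 7.39, 16.25 and 16.56 FPKM and Fga at 15.21, 31.91 and 17.52 FPKM. Ttr stood at 1.03, 1.5 and 5.28 FPKM there. The KO library stood apart in its immunoglobulin transcripts, which made up 5.99% of its FPKM total, against 0.113% to 0.202% in the WT libraries. Values were compared as log2(FPKM + 1) with limma, KO minus WT, over the 16871 genes that averaged 0.5 FPKM or more, where low genes appear to change less than they do in FPKM. Of these, 122 genes (0.723%) passed at a Benjamini-Hochberg adjusted p of 0.05, 108 of them (0.640%) higher and 14 (0.0830%) lower in the KO library. Read depth is unknown, so no counting intervals were computed.

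The genes lie on chromosomes 2, 4, 6 and 17 of the mouse (GENCODE M21 gene models on GRCm38, the assembly also called mm10). C1qa (ENSMUSG00000036887; 136895917 to 136898803), C1qc (ENSMUSG00000036896; 136889804 to 136893065) and C1qb (ENSMUSG00000036905; 136880129 to 136886187) follow one another on the minus strand of chromosome 4, each with 3 exons. C1ra (ENSMUSG00000055172; 124512405 to 124523443, plus strand) and C1s1 (ENSMUSG00000038521; 124530345 to 124542359, minus strand) are neighbours on chromosome 6. Serping1 (ENSMUSG00000023224) is at 84765387 to 84775444 on the minus strand of chromosome 2. C4b (ENSMUSG00000073418; 34728380 to 34743882) and Cfb (ENSMUSG00000090231; 34856374 to 34862518) share the major histocompatibility region of chromosome 17, and C3 (ENSMUSG00000024164; 57203970 to 57228136) is on the same chromosome, all 3 on the minus strand. Near copies exist for 3 of the genes: 48.0% of the 50-base windows of the C1ra transcript also occur in C1rb, 24.3% of those of C1s1 in C1s2 and 35.2% of those of C4b in C4a. The C1q chains share 0 such windows with one another, so their values are separate measurements in this respect.

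The stretch before the start site is shown for 1 gene of each presumed source, as these genes took different orders over the libraries: C1qb for the C1q chains, C1s1 for the C1 proteases, and C3. RefSeq held an entry for 5 of the 9 genes on GRCm38.p6, and 3 of these had 250 bases before the start that lie outside the GENCODE gene. Capitals mark GAGGAA, the core recognised by PU.1, a transcription factor of macrophages. Each sequence runs 5′ to 3′ toward the start on the minus strand: C1qb at chr4:136886201-136886450, C1s1 at chr6:124542360-124542609 and C3 at chr17:57228137-57228386.
C1qb: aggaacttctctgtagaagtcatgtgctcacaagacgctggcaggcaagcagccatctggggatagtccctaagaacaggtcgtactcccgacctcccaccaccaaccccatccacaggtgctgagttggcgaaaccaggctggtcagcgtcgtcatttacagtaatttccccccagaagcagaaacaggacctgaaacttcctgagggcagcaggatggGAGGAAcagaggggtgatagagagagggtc
C1s1: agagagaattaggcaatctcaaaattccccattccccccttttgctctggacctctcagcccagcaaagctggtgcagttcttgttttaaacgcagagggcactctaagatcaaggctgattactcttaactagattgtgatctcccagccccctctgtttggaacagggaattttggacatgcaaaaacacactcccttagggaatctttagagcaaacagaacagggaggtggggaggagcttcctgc
C3: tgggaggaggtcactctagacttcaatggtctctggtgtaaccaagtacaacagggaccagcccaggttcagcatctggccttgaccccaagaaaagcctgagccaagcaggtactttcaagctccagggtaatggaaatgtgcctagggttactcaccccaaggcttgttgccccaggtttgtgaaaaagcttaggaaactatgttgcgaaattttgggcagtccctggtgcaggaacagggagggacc
The letters searched, on both strands, were GAGGAA, TTCNNNGAA (the gamma interferon element GAS) and TATAAA (the TATA box). GAGGAA occurred in the C1qb stretch, 30 to 25 bases before the start, with no overlap with another motif, and 23.3% of all 32851 windows of this length hold it. Neither the C1s1 nor the C3 stretch held any of the 3; 7.02% (TTCNNNGAA) and 12.4% (TATAAA) of all windows hold the others. These matches describe letters only.

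None of the 9 complement genes passed limma's test between the KO and WT libraries, against 0.723% of all tested genes, and 0 of 9 reached an unadjusted p under 0.05, against 10.8% of all tested genes. None of the 9 passed at the adjusted threshold either when limma's mean-variance trend was left out. The C1q chains and C3 lay inside the WT range, C1ra, C1s1 and Serping1 lay below every WT library, at 68.3% to 77.9% of the WT mean, and Cfb lay just above every WT library. C4b was inside a wide WT range. Over all tested genes, 31.2% lay below every WT library, 28.0% lay above every one and 40.8% lay between, so 3 of 9 below and 1 of 9 above are shares near the background or under it. Summed, the 9 genes took 0.307% of the FPKM total in the KO library, against 0.382%, 0.349% and 0.330% in WT replicates 1, 2 and 3.

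**Figure D1:**
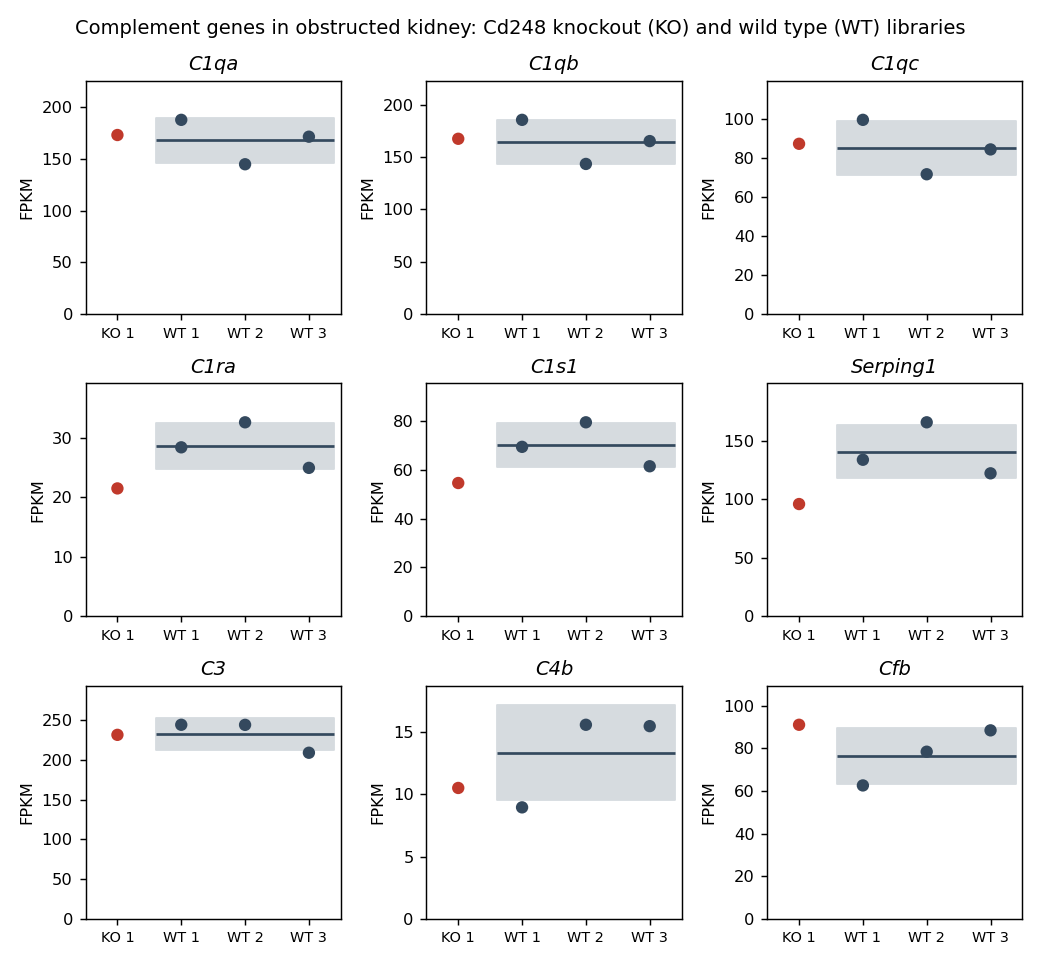
Level of each complement gene in FPKM (vertical axes, from 0) in the KO library (red) and the 3 WT libraries (dark), with the WT mean as a line and its SD as a band. C1ra, C1s1 and Serping1 lie below every WT point in the KO library, Cfb lies just above, and the others lie between WT points.

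The C1q chains form the recognition unit of the classical pathway, and all are needed to build it. C1qa stood at 173 FPKM in the KO library, against 188, 145 and 171 FPKM in WT replicates 1, 2 and 3. C1qb, the B chain, stood at 167 FPKM in the KO library, against 186, 143 and 165 FPKM in the WT libraries. C1qc, the C chain, stood at 87.5 FPKM in the KO library, against 99.8, 71.8 and 84.6 FPKM in the WT libraries. For each chain the KO value was between those of WT replicates 1 and 3, and WT replicate 1 was the highest and WT replicate 2 the lowest. The differences were 0.05 (SE 0.18) for C1qa, 0.03 (SE 0.18) for C1qb and 0.05 (SE 0.20) for C1qc, with limma adjusted p of 0.937, 0.964 and 0.951, and their signs depended on the library scaling and on WT replicate 2. The 95% interval for C1qa ran from -0.43 to 0.54, which covers levels from 0.741 to 1.45 times the WT level.

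The ratios between the chains lay inside the WT values. C1qa was 1.03 times C1qb in the KO library, against 1.01, 1.01 and 1.04 times in the WT libraries. C1qa was 1.98 times C1qc in the KO library, against 1.88, 2.02 and 2.03 times in the WT libraries. The C1q chains varied between WT libraries by 12.8% to 16.4% of their mean, while these ratios varied far less.

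The C1q chains and the mean of the macrophage markers took nearly the same course across the libraries, though single markers did not all do so. The mean log2 level of 14 macrophage markers, relative to its WT mean, was -0.02 in the KO library and 0.17, -0.20 and 0.03 in WT replicates 1, 2 and 3. That of the C1q chains was 0.04 in the KO library and 0.19, -0.21 and 0.02 in the WT libraries. None of the 14 markers passed limma's test, against 0.723% of all tested genes. An unadjusted p under 0.05 was reached by 0 of 14, against 10.8% of all tested genes. Their median difference was -0.06, against -0.01 over all tested genes. Set against Csf1r, the receptor for the macrophage growth factor CSF-1, C1qa was 4.75 times as high in the KO library and 4.68, 4.41 and 4.48 times in the WT libraries. Set against Adgre1, the macrophage surface protein F4/80, it was 6.75 times as high in the KO library and 6.02, 6.26 and 6.13 times in the WT libraries. Both ratios were above every WT library (exact permutation p = 0.50 and 0.25, two-sided, the second being the smallest that 1 library against 3 allows). Macrophage genes did not all follow: Lyz2, lysozyme, stood at 662 FPKM in the KO library and at 634, 373 and 775 FPKM in the WT libraries.

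**Figure D2:**
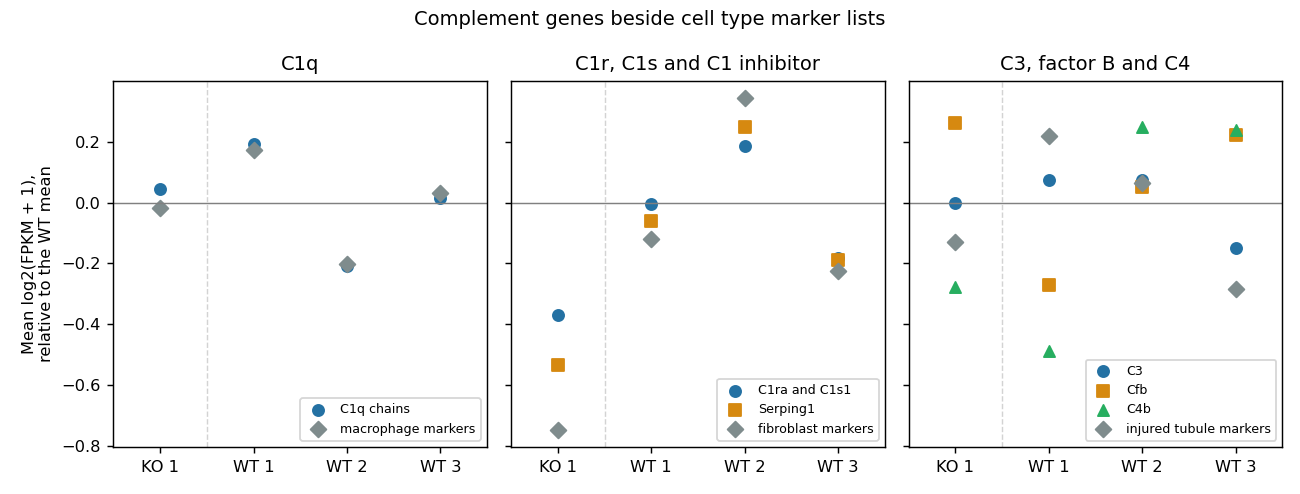
Mean log2(FPKM + 1) of complement genes and of marker lists (vertical axis, relative to the WT mean) in the KO library and in WT replicates 1 to 3. The C1q chains lie close to the mean of the macrophage markers, C1ra with C1s1 and Serping1 follow the direction of the fibroblast markers with smaller steps, and C3, Cfb and C4b each take another order.

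Transcripts of the proteases C1r and C1s, which C1q carries as a complex, were lower in the KO library than in any WT library. C1ra stood at 21.5 FPKM in the KO library, against 28.4, 32.6 and 24.9 FPKM in WT replicates 1, 2 and 3. C1s1 stood at 54.5 FPKM in the KO library, against 69.3, 79.3 and 61.4 FPKM in the WT libraries. WT replicate 2 was the highest for both genes, the reverse of its place for C1q. The KO levels were 75.0% and 77.9% of the WT means of 28.6 ± 3.83 and 70.0 ± 9.01 FPKM (SD, n = 3). The differences were -0.39 for C1ra (SE 0.17, 95% interval -0.84 to 0.06) and -0.35 for C1s1 (SE 0.17, interval -0.80 to 0.10). Neither passed limma's test (adjusted p = 0.508 and 0.547). The gap to the nearest WT library was 3.45 FPKM for C1ra, less than the WT SD, and 6.85 FPKM for C1s1, also less.

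Serping1, which encodes C1 inhibitor, the serpin that blocks C1r and C1s, stood at 96.0 FPKM in the KO library, against 134, 166 and 122 FPKM in WT replicates 1, 2 and 3. It had the largest negative difference of the 9 genes, -0.53 (SE 0.20, 95% interval -1.07 to 0.01), and did not pass limma's test (adjusted p = 0.467; exact permutation p = 0.25). The KO level was 68.3% of the WT mean of 141 ± 22.6 FPKM (SD, n = 3), and its gap of 26.3 FPKM to the nearest WT library exceeded that SD. The authors' deposited table gives Serping1 a fold change of 0.68 with a p-value of 0.01 and a q-value of 0.29, and marks none of the 9 genes as significant. C1ra, C1s1 and Serping1 stayed below every WT library under each rescaling run. These were equal FPKM totals, such totals without immunoglobulin genes, median-of-ratios scaling and quantile normalization. The others of the 12 alternative settings keep the order of the libraries or drop a WT library, so they could not change this.

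C1s1 was 2.54 times C1ra in the KO library, above the 2.44, 2.44 and 2.46 times of the WT libraries (exact permutation p = 0.25). Since C1ra may share reads with C1rb, the pair was also summed: C1ra with C1rb came to 23.8 FPKM in the KO library, against 31.3, 37.4 and 28.5 FPKM in the WT libraries. C1s1 with C1s2 came to 55.1 FPKM in the KO library, against 69.8, 80.9 and 62.0 FPKM in the WT libraries. The sums were below every WT library as well. Serping1 was 1.76 times C1s1 in the KO library, below the 1.93, 2.09 and 1.99 times of the WT libraries.

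Most fibroblast markers also lay lower in the KO library. The summed level of 10 fibroblast markers was 285.8 FPKM in the KO library, against 558, 708 and 533 FPKM in WT replicates 1, 2 and 3. Of these 10 markers, 8 were below every WT library, against 31.2% of all tested genes. Of the 10, 1 passed limma's test as lower, Col1a1 (adjusted p = 0.0313), against 0.0830% of all tested genes. Its level was 68.8 FPKM in the KO library, against 159, 170 and 160 FPKM in the WT libraries. Col1a1 passed under 6 of the 12 alternatives and not without WT replicate 1, 2 or 3 (limma adjusted p = 0.143, 0.309 and 0.203) or with immunoglobulin genes left out of the fit (0.148). Col1a1 also did not pass with a pseudocount of 0.1 FPKM or with no filter. The median difference of the list was -0.76. All 5 endothelial markers were also below every WT library, against the same 31.2% of all tested genes. They summed to 112 FPKM in the KO library and to 153, 188 and 146 FPKM in the WT libraries. The part of either cell type in the lower C1ra, C1s1 and Serping1 levels was not tested.

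The distance between these complement genes and single fibroblast genes differed from gene to gene. Pdgfra, a receptor of interstitial fibroblasts, stood at 12.7 FPKM in the KO library and at 17.9, 23.1 and 15.8 FPKM in the WT libraries. Serping1 was 7.56 times Pdgfra in the KO library, inside the WT values of 7.48, 7.18 and 7.74 times. C1s1 was 4.30 times Pdgfra in the KO library, against 3.87, 3.43 and 3.88 times in the WT libraries (exact permutation p = 0.50). Against the collagen gene Col1a1 the ratio stood further apart: C1s1 was 0.793 times Col1a1 in the KO library and 0.436, 0.466 and 0.383 times in the WT libraries (exact permutation p = 0.25). Serping1 thus kept its WT ratio to Pdgfra in the KO library, but not to the fibroblast markers as a list. Its log2 level minus their mean log2 level was 2.475 in the KO library, against 2.322, 2.165 and 2.298 in the WT libraries. C1s1 was high in the KO library relative to both Pdgfra and Col1a1.

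**Figure D3:**
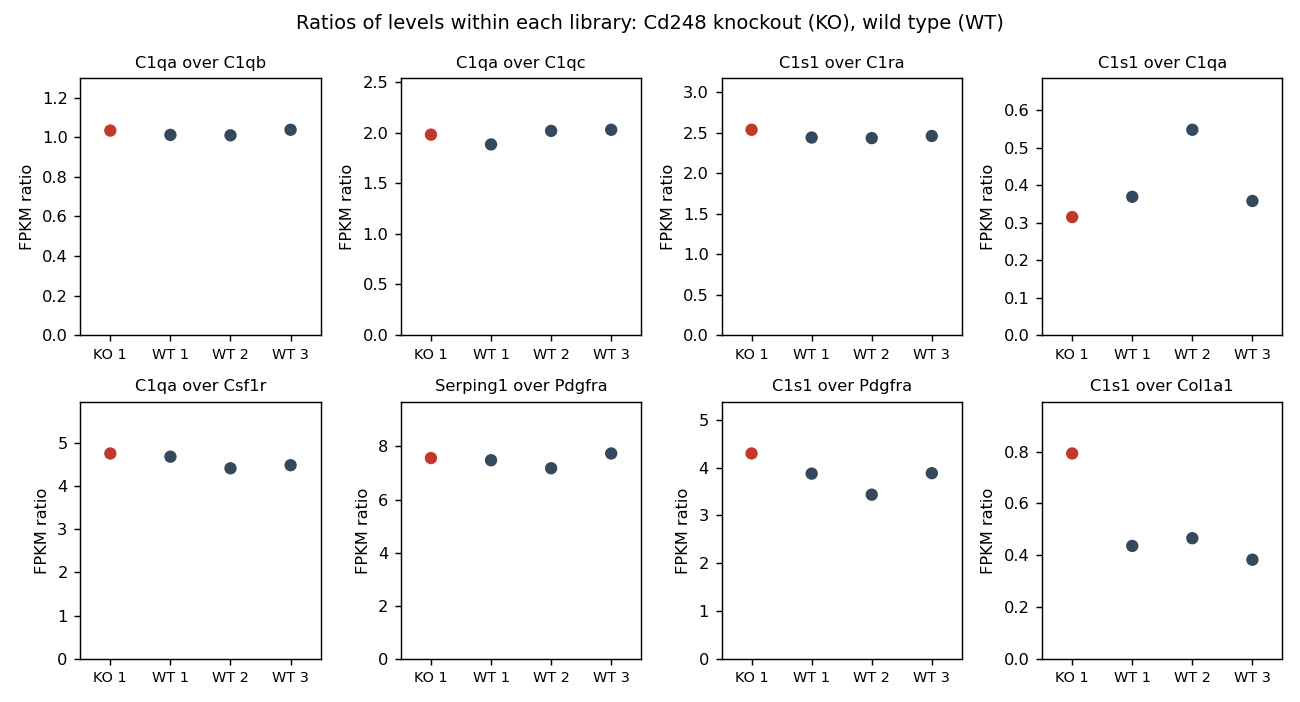
Ratio of 2 FPKM levels within each library (vertical axes, from 0) for the KO library (red) and the WT libraries (dark). C1qa over C1qb lies inside the WT values in the KO library, C1s1 over C1ra lies slightly above them, C1s1 over C1qa is lowest in the KO library, and C1s1 over Col1a1 is highest there.

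Across the components of C1 and its inhibitor the proportions shifted with the library. C1s1 was 0.315 times C1qa in the KO library, against 0.369, 0.548 and 0.358 times in WT replicates 1, 2 and 3. C1ra was 0.124 times C1qa in the KO library, against 0.151, 0.225 and 0.145 times in the WT libraries. Serping1 was 0.555 times C1qa in the KO library, against 0.713, 1.15 and 0.713 times in the WT libraries. Each of these 3 ratios was below every WT library, but WT replicate 2 stood further from the other WT libraries than the KO library did (exact permutation p = 0.50 for each).

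C3, the protein on which all pathways converge, was the most abundant of the 9 genes in every library. It stood at 232 FPKM in the KO library, against 244, 244 and 209 FPKM in WT replicates 1, 2 and 3, and held rank 97 of all genes in the KO library and ranks 81, 75 and 92 in the WT libraries. The difference was -0.002 (SE 0.15, 95% interval -0.40 to 0.40, limma adjusted p = 0.998). The sign of this difference depended on the library scaling and changed without WT replicate 1 or 2. C3 varied least between WT libraries, by 8.73% of its mean. Injured tubule markers were mixed in the same library, with a median difference of -0.02. Of 9, 2 lay below every WT library and 2 above every one, against 31.2% and 28.0% of all tested genes. Among them, Havcr1 (KIM-1) stood at 261 FPKM in the KO library and at 189, 206 and 85.6 FPKM in the WT libraries, and Lcn2 (lipocalin 2) at 84.4 FPKM in the KO library and at 178, 170 and 169 FPKM in the WT libraries.

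Cfb, which encodes factor B, the enzyme subunit of the alternative pathway, stood at 91.1 FPKM in the KO library, against 62.7, 78.5 and 88.5 FPKM in WT replicates 1, 2 and 3. It was above every WT library by 2.62 FPKM, less than the WT SD of 13.0 FPKM, and lay inside the WT range once the libraries were given equal FPKM totals or quantile normalized. The difference was 0.26 (SE 0.21, limma adjusted p = 0.705), and 0.13 without WT replicate 1 or with the same FPKM total and 0.17 after quantile normalization. Cfb was 0.394 times C3 in the KO library, inside the WT values of 0.257, 0.322 and 0.424 times. Within WT it was lowest in replicate 1 and highest in replicate 3, as were the proximal tubule markers, whose mean log2 level relative to the WT mean was 0.57 in the KO library and -0.89, 0.18 and 0.71 in the WT libraries. The part of tubule content in the Cfb level was not tested.

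C4b, the C4 that C1s cleaves, was the least abundant of the 9 genes in the KO library and in the WT mean. It stood at 10.5 FPKM in the KO library, against 8.96, 15.6 and 15.5 FPKM in WT replicates 1, 2 and 3. WT replicate 1 was far below the other WT libraries, and the KO library lay between. The difference was -0.28 (SE 0.34, limma adjusted p = 0.803), and was -0.52, -0.15 and -0.16 without WT replicate 1, 2 and 3. C4b varied by 28.5% of its mean between WT libraries, the widest spread of the 9. Summed with its near copy C4a, it came to 10.9 FPKM in the KO library, against 9.42, 16.2 and 16.2 FPKM in the WT libraries.

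By level, the KO library ordered the genes as C3, C1qa, C1qb, Serping1, Cfb, C1qc, C1s1, C1ra and C4b. The WT means ran C3 (233 FPKM), C1qa (168), C1qb (165), Serping1 (141), C1qc (85.4), Cfb (76.6), C1s1 (70.0), C1ra (28.6) and C4b (13.4), all in FPKM, so Cfb and C1qc exchanged places. In WT, C1qa and C1qb differed by less than their SDs, as did C1qc and Cfb, and Cfb and C1s1, while C1qb and Serping1 differed by little more than theirs. Serping1 and C1qb, neighbours in both orders, were further apart in the KO library, at 96.0 and 167 FPKM.

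Of the genes with at least 5 FPKM, those most like a complement profile were found by the distance between log2 values over the 4 libraries, each gene centred on its own mean. The nearest of 8594 genes to the C1q mean were Igsf6 (distance 0.01), Gm9396 (0.02) and Stmn1 (0.03), and with the complement genes included, C1qb, C1qa and C1qc ranked 3, 5 and 8 of 8603. Of the 14 macrophage markers, 12 were ranked, at places spread from 20 to 7575: Aif1, Ms4a7, Csf1r and Adgre1 stood at 20, 46, 66 and 73, Mertk, Mrc1, Cd68 and Tyrobp at 290, 459, 687 and 721, and Cd14, Fcgr1, Cx3cr1 and Lyz2 at 2387, 3450, 4775 and 7575. The nearest to the mean of C1ra and C1s1 were genes that included Ece1 (0.04) and Tspan12 (0.05), with Serping1 at rank 201 of 8603. Of the 10 fibroblast markers, 9 were ranked: Pdgfrb and Pdgfra stood at 127 and 284, and the other 7, with the collagen genes among them, between 6191 and 8237. C1ra and C1s1 stood at ranks 7606 and 7528 from the C1q mean. The nearest to C3 were Ddx18 (0.01), Tlr3 (0.02) and Rfxank (0.02). With 4 libraries many genes lie close to any profile, so these distances are a description.

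**Figure D4:**
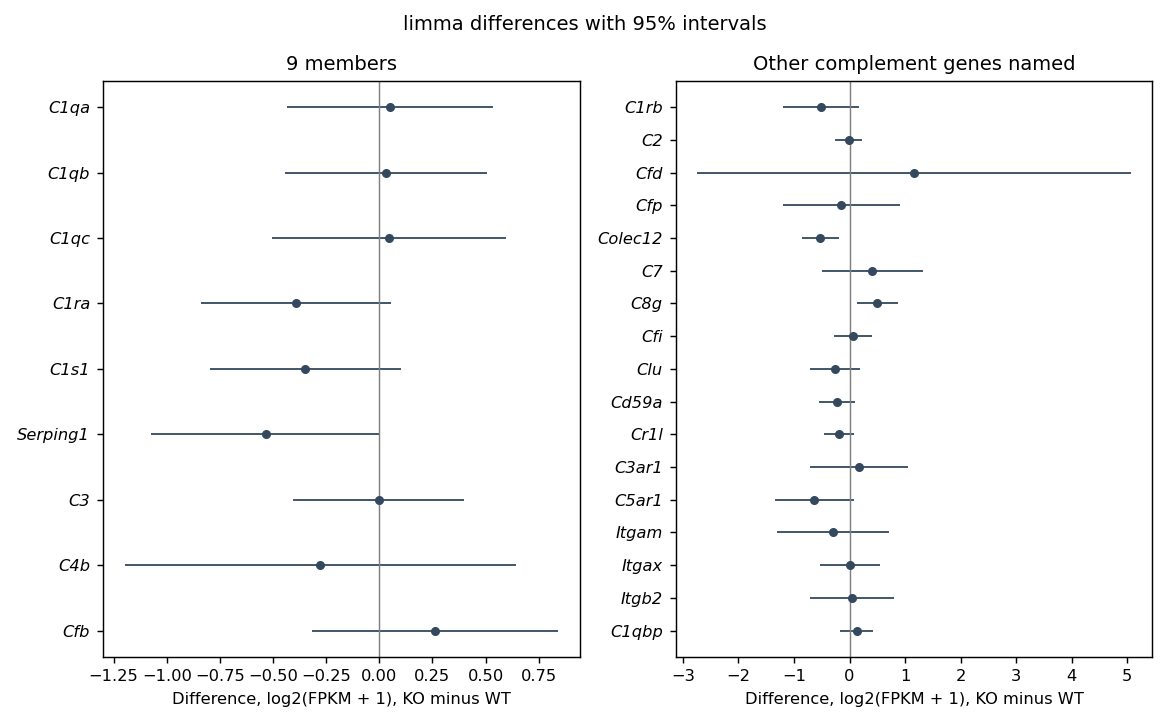
Difference in log2(FPKM + 1), KO minus WT, with limma's 95% interval (horizontal axes, on different scales) for the 9 genes on the left and 17 other complement genes on the right. Intervals of the 9 genes include 0, and that of Serping1 ends at 0.01.

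Complement genes outside the 9 differed in both directions, from -0.64 for C5ar1 to 1.16 for Cfd among those tested. Of 48 listed by role, 44 were in the table and 31 were tested. Of the 31, 0 passed limma's test, against 0.723% of all tested genes. An unadjusted p under 0.05 was reached by 4 of 31, against 10.8% of all tested genes. The median difference of the 31 was -0.01, as over all tested genes. The KO library lay below every WT library for 10 of the 31, against 31.2% of all tested genes. It lay above every one for 7, against 28.0%.

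Among soluble regulators, Clu, the terminal pathway inhibitor clusterin, stood at 560.1 FPKM in the KO library, against 719, 659 and 634 FPKM in WT replicates 1, 2 and 3 (-0.26, SE 0.17, limma adjusted p = 0.644). It lay below every WT library. Cfi, the protease factor I that cleaves deposited C3 and C4 fragments, lay inside the WT range, at 16.7 FPKM in the KO library and 14.5, 16.1 and 17.5 FPKM in the WT libraries.

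Among initiators and convertase genes, C2, the partner of C4 in the classical convertase, was level: 15.1 FPKM in the KO library, against 15.5, 14.6 and 15.8 FPKM in the WT libraries. Colec12, a scavenger receptor of the collectin family, stood at 12.1 FPKM in the KO library, below 17.3, 19.7 and 16.6 FPKM in the WT libraries (-0.53, SE 0.12, adjusted p = 0.311). C1rb, the near copy of C1ra, was at 2.29 FPKM in the KO library, against 2.87, 4.84 and 3.58 FPKM in the WT libraries (adjusted p = 0.557). Cfp, the properdin that leukocytes release, lay inside the WT range, at 16.4 FPKM in the KO library and 26.9, 13.4 and 16.7 FPKM in the WT libraries. Cfd, the factor D that fat cells secrete as adipsin, was at 3.66 FPKM in the KO library, at 8.06 FPKM in WT replicate 2 and listed at 0 in WT replicates 1 and 3. Adipocyte markers, chosen after these values were seen, summed to 2.28 FPKM in the KO library, 4.48 FPKM in WT replicate 2 and 0.26 and 0.59 FPKM in WT replicates 1 and 3, and their part in any result was not tested.

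Terminal components, which form the membrane pore, were low apart from C7. C7 stood at 12.0 FPKM in the KO library, against 9.15, 11.9 and 6.23 FPKM in the WT libraries (0.41, adjusted p = 0.708). C8g, the lipocalin chain of C8, stood at 2.83 FPKM in the KO library, above 1.69, 1.93 and 1.51 FPKM in the WT libraries (0.50, SE 0.14, adjusted p = 0.360). Hc, the mouse C5 gene, was at 0.13 FPKM in the KO library and at 0.04 to 0.20 FPKM in the WT libraries, and C9 was at 0.08 FPKM or less in each library.

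Among surface regulators, Cr1l, the rodent inhibitor Crry, stood at 5.81 FPKM in the KO library, against 6.88, 7.06 and 6.38 FPKM in the WT libraries (adjusted p = 0.569). Cd59a, which blocks the pore, stood at 13.9 FPKM in the KO library, against 17.5, 14.9 and 16.9 FPKM in the WT libraries (adjusted p = 0.571). Both were below every WT library. The receptors divided: C5ar1, the C5a receptor of myeloid cells, was at 3.57 FPKM in the KO library, below 7.55, 4.56 and 6.53 FPKM in the WT libraries (-0.64, SE 0.26, adjusted p = 0.503). C3ar1, the C3a receptor, lay inside the WT range, at 10.4 FPKM in the KO library and 11.7, 6.40 and 10.01 FPKM in the WT libraries. The integrin chains Itgam, Itgax and Itgb2, which build complement receptors of leukocytes, also lay inside it, with adjusted p of 0.810, 0.998 and 0.969. C1qbp, a mitochondrial protein that binds C1q, was at 16.8 FPKM in the KO library and at 14.3, 14.9 and 16.6 FPKM in the WT libraries (adjusted p = 0.716). Neutrophils also carry Itgam and C5ar1; 4 neutrophil markers summed to 26.0 FPKM in the KO library and to 72.7, 14.8 and 41.4 FPKM in the WT libraries, and their part in the receptor levels was not tested.

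Antibody bound to a surface is a classical ligand of C1q, and antibody genes stood apart in the KO library. B and plasma cell markers summed to 4489 FPKM in the KO library, against 134, 98.9 and 69.7 FPKM in WT replicates 1, 2 and 3, and 4 of 5 tested markers passed limma's test as higher, against 0.640% of all genes. Of these, Mzb1 passed under all 12 alternatives. Igkc, Jchain and Cd79a each lost the call in some: none of them passed without WT replicate 2 or 3 (adjusted p between 0.0738 and 0.196), Igkc and Cd79a did not pass without WT replicate 1 (0.0766 and 0.150), and Jchain and Cd79a did not with immunoglobulin genes left out of the fit (0.110 and 0.171), where Igkc itself is left out. Igkc, Jchain and Cd79a also did not pass with no filter, nor Jchain and Cd79a with a pseudocount of 0.1 FPKM. Over the same libraries the C1q chains summed to 428 FPKM in the KO library, against 473, 359.9 and 421 FPKM in the WT libraries.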

How the data were processed

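The labels' protocols describe Trizol extraction, selection of messenger RNA on oligo(dT) beads and pooled RNA. The submitters' processing notes list cutadapt 1.9, FastQC, HISAT2 2.0.4 and the build mm10 without their roles; no source used here names the program behind the expression values. Per the file headers, the authors' table holds FPKM per gene and library, with 2 decimals. The authors also deposited a fold change (a ratio of the KO library to the WT mean), its log2, and a p-value and q-value per gene from an unnamed test. Low values showed no steps of whole reads, so depth is unknown, and the table has 0 further per-sample columns.

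Groups came from sample titles. The comparison was planned as 3 libraries against 3 and made as 1 against 3, with FPKM tested as log2(FPKM + 1). Genes averaging 0.5 FPKM or more over the libraries were fitted with limma 3.58.1 (R 4.3.3), with a mean-variance trend, two-sided, Benjamini-Hochberg over 16871 genes. The fit had 2 residual and 2.32 prior degrees of freedom; the KO library is assumed to vary like the WT libraries. The same fit was run on simulated data that share this assumption, so they cannot check it, and the outcome is not reported here. Exact permutation tests were two-sided over the choice of the KO library. Other complement genes were named if they averaged at least 5 FPKM, passed the test or were among the 3 largest differences each way. The named exceptions, Hc and C9, were chosen after their values were seen. So were Umod, Alb, Apoa1, Ahsg, Serpina1a, Fga, Ttr, Lyz2, Pdgfra, Havcr1 and Lcn2 from the marker lists. The ratios to Csf1r, Adgre1, Pdgfra and Col1a1 were also chosen after the values were seen. A few results that the naming rules select are not reported here. Members and lists were chosen with earlier results of these data known. Alternatives changed the pseudocount, filter, scaling, variance trend, genes fitted or WT libraries.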

Additional observations from a re-analysis of the deposited data

How the results depend on the processing

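No complement gene of the 9 passed under any of the 12 alternatives, where the lowest adjusted p was 0.355 (limma), and 0 of the other complement genes passed. Of the 108 differences recomputed for the 9 genes, 94 kept their sign and 14 did not, all of C1qa, C1qb, C1qc or C3, whose differences were near 0. The 94 include settings that could not change a sign. Changing the filter or the variance trend, or leaving immunoglobulin genes out of the fit, leaves each difference as it was. With the same FPKM total, which moved the median of all genes to -0.11, the differences were -0.083 for C1qa, -0.10 for C1qb and -0.086 for C1qc; leaving immunoglobulin genes out of that total gave -0.017 for C1qb and -0.00077 for C1qc. Quantile normalization gave -0.17, -0.16 and -0.023 for C1qa, C1qb and C1qc, and median-of-ratios scaling gave 0.016 for C3. Without 1 WT library, the difference ranged from -0.052 to 0.13 for C1qa, from -0.064 to 0.12 for C1qb, from -0.070 to 0.16 for C1qc and from -0.076 to 0.036 for C3. The count of genes passing was 39 with a pseudocount of 0.1 FPKM, 205 with no filter, 2 with immunoglobulin genes left out of the fit and between 45 and 73 without 1 WT library, against 122. The median of the other complement genes was -0.13 with the same FPKM total, -0.052 with that total without immunoglobulin genes and between -0.070 and -0.014 without 1 WT library. The cause of these shifts was not tested. Without WT replicate 1 the C1q chains lay above both remaining WT libraries and C4b below both; C3 lay below both without WT replicate 3, and below every WT library with quantile normalization. No paired analysis was possible because the KO and WT libraries share 1 replicate number. One KO library, unknown depth and pooled RNA limit each comparison.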
